A study of Homo sapiens with 4 samples.

Results

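Transcripts of the YAP, TAZ, TEAD and VGLL factors were examined in SW1990 cells, an established human pancreatic carcinoma line, treated with gomisin G or vehicle. The genes were taken by name: the coactivator genes YAP1 and WWTR1 (which encodes TAZ), the DNA-binding partners TEAD1, TEAD2, TEAD3 and TEAD4, and the vestigial-like genes VGLL1, VGLL3 and VGLL4. They are 9 of the 58735 genes in the table, and 8 of the 9 passed the filter on low counts. The treated group had 2 libraries from cells given 10 µM gomisin G for 24 h. Gomisin G is a dibenzocyclooctadiene lignan from the fruits of Schisandra plants. The control group had 2 libraries from cells given vehicle for 24 h, and the labels do not name the solvent. Both groups are the same single line, with 1 dose and 1 time point. No label ties the replicates to separate cultures. The p-values therefore cover the spread between these libraries, pooled in part over all tested genes, and this spread may be technical.

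YAP and TAZ do not bind DNA themselves. They enter the nucleus, bind TEAD factors on enhancers and promoters, and activate genes of growth, adhesion and the cytoskeleton; the Hippo kinases MST activate the LATS kinases, and LATS phosphorylate YAP and TAZ, which keeps them in the cytoplasm or marks them for breakdown. VGLL proteins bind the same TEAD factors: VGLL4 competes with YAP and acts as a repressor, while VGLL1 and VGLL3 can serve as other TEAD cofactors. Much of this control acts on the proteins, whereas the values here are gene-level transcript counts and do not show phosphorylation, location or splice forms.

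Library totals ranged from 14580848 to 15245770 counts. Of 10 epithelial marker genes 8, all but KRT7 and CEACAM6, were at or above 1 CPM (counts relative to library size, here with TMM factors) in all 4 libraries. The 10 summed to 11961 and 10173 CPM in vehicle and to 10016 and 7856 CPM with gomisin G. KRT8 (95276 and 79233 counts in vehicle, 69351 and 58034 with gomisin G) made up most of this sum. Directions differed among these markers: KRT19 was higher with gomisin G (8626 and 7222, then 14662 and 11460). The 7 fibroblast markers summed to 4.69 and 4.91 CPM in vehicle and to 8.57 and 12.0 CPM with gomisin G. Nearly all of this came from COL1A1 (46 and 53 counts in vehicle, 67 and 116 with gomisin G) and PDGFRB (21 and 20, then 57 and 69). COL3A1, DCN and PDGFRA had at most 4 counts a library, and COL1A2 and LUM were at 0. The part of these markers in the results was not tested. Leukocyte, endothelial, acinar and islet markers each summed to at most 0.966 CPM in any library.

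None of the 8 tested factors passed the test for a change with gomisin G. The lowest estimates were those of the DNA-binding factor genes TEAD1 and TEAD4 and the cofactor gene VGLL3, which stood 1.77-fold, 1.78-fold and 2.0-fold higher in vehicle. TEAD2 lay 1.51-fold higher with gomisin G. The coactivator genes YAP1 and WWTR1, and TEAD3 and VGLL4, showed smaller differences. By edgeR's quasi-likelihood test with Benjamini-Hochberg adjustment, 0 of 8 were called, where 1.83% of the 15721 tested genes were called (0.922% higher and 0.903% lower with gomisin G). At an unadjusted p below 0.05 there were 4 of the 8 (TEAD1, TEAD2, TEAD4 and VGLL3), against 20.6% of tested genes. DESeq2 called 3 lower with gomisin G and 0 higher, against 3.28% and 3.43% of the 13282 genes to which it gave an adjusted p, and limma voom called 0. Fits that leave out a gomisin G library take their spread from the vehicle pair alone. Without replicate 1, edgeR called 3 factors lower (8.85% of tested genes were) and 2, TEAD2 and VGLL4, higher (8.25% were). Without replicate 2 it called 4 lower, against 20.1% of tested genes, and 0 higher. TEAD1, TEAD4 and VGLL3 were called lower in each of these fits. No factor was called without vehicle replicate 1 (0.522% of tested genes lower and 0.438% higher) or without vehicle replicate 2 (0.397% and 0.415%). In 6 of the 8 the treated libraries did not overlap the vehicle libraries in CPM, as was so for 54.2% of tested genes. In bulk RNA, fewer expressing cells and less RNA per cell cannot be told apart.

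**Figure D1:**
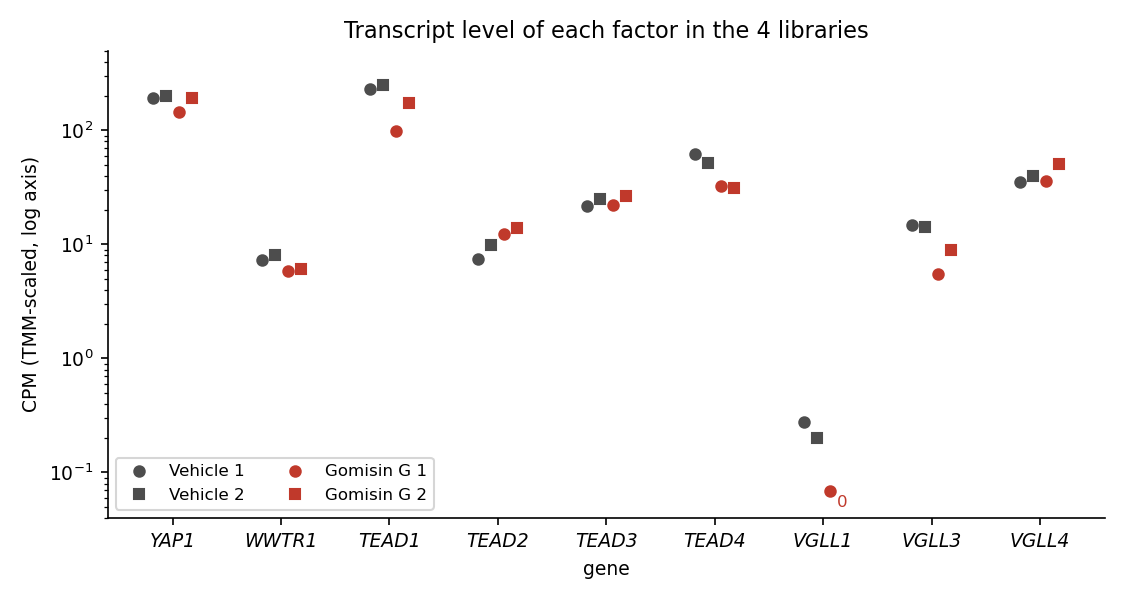
TMM-scaled CPM (log axis) of each of the 9 genes in each library; grey symbols are vehicle, red are gomisin G, circles replicate 1 and squares replicate 2. YAP1, WWTR1, TEAD1, TEAD4 and VGLL3 lie lower and TEAD2 higher in both gomisin G libraries than in both vehicle libraries. For YAP1 the gap in replicate 2 is very small. Such separation held for 54.2% of all tested genes. VGLL1 is close to 0 throughout, with a count of 0 in gomisin G replicate 2.

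The sequence upstream of these genes was searched for the core TEAD-binding motif GGAATG and the AP-1 motif TGANTCA, on both strands. RefSeq windows on GRCh38.p14, from 250 bases before to 50 after a gene's start, covered 7 of the 9 genes with 13 windows. TEAD1 and TEAD4 had no window, so the search says nothing about them, and several of the 13 windows belong to VGLL4. The TEAD motif was in 2 of the 13 (15.4%), 1 each for YAP1 and VGLL1, against 14.0% of all 35116 windows. The AP-1 motif was in 0 of the 13, against 7.71% of all. No AP-1 motif is therefore marked in the stretches shown. The YAP1 and VGLL1 stretches are shown because each holds the motif of the factors that YAP and VGLL1 bind, and VGLL3 because it had the largest estimate. Each is 5′ to 3′ on the gene's strand, in lower case with the TEAD motif in capitals (CATTCC is GGAATG on the other strand), at chr11:102110197-102110446 (plus), chrX:136531965-136532151 (plus, ending before the first annotated exon) and chr3:86991150-86991399 (minus).
YAP1: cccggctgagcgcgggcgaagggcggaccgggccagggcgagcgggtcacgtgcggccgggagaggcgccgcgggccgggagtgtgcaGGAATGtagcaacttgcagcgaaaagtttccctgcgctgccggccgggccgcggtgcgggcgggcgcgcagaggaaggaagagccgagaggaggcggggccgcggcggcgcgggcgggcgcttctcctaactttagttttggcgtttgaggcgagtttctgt
VGLL1: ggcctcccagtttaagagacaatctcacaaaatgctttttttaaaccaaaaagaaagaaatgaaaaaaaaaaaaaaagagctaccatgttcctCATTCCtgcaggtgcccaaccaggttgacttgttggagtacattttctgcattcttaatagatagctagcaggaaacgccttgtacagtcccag
VGLL3: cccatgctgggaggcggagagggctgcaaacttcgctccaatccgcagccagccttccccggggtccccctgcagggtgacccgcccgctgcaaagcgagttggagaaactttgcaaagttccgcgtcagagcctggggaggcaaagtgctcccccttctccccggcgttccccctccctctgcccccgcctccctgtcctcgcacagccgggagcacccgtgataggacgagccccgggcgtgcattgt
The motif begins 162 bases before the RefSeq start of YAP1 (102110447) and 157 bases before that of VGLL1 (136532215), which differ from the GENCODE gene starts given with their values. A match describes the sequence and does not show that a factor binds there.

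The coactivators were expressed very unequally. YAP1 (ENSG00000137693; chromosome 11, 102110461 to 102233423, plus strand) stood at 193.3 and 198.9 CPM in the vehicle libraries and at 145.3 and 192.4 CPM with gomisin G. Only gomisin G replicate 1 stood clearly below vehicle; replicate 2 was at -0.027 against the vehicle mean on the log2 scale. The log2 change was -0.22 (SE 0.18, edgeR adjusted p = 0.521), with a 95% interval from -0.63 to 0.20. It was -0.030 without gomisin G replicate 1 and -0.43 without replicate 2 (edgeR adjusted p = 0.00167). WWTR1 (ENSG00000018408; chromosome 3, 149517235 to 149736714, minus strand) was measured at 7.31 and 8.07 CPM in vehicle and 5.87 and 6.12 CPM with gomisin G. Both treated libraries lay below both vehicle libraries, and they lay close together. Its log2 change was -0.36 (SE 0.23, edgeR adjusted p = 0.397; 95% interval -0.88 to 0.16). WWTR1 rested on 85 to 120 counts a library, and counting error alone gives its vehicle-to-gomisin G ratio of 1.28 a 95% exact interval of 1.04 to 1.56. The antisense gene WWTR1-AS1 shares 795 exon bases with it and had 0 to 3 counts a library. For both coactivator genes the interval of the fit includes 0, and its lower end allows a log2 change as low as -0.63 for YAP1 and -0.88 for WWTR1.

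Levels of different genes were compared per length, as TPM (counts per base of merged exons, scaled to the same total in each library). YAP1 transcripts made up 97.1% ± 0.14 (SD, n = 2) of the YAP1 plus WWTR1 TPM in vehicle and 97.4% ± 0.43 (n = 2) with gomisin G. The groups overlapped in this share. The ratio of YAP1 to WWTR1 was 35.3 and 32.9 in vehicle and 33.1 and 42.0 with gomisin G. In all 4 libraries YAP1 was thus by far the more abundant transcript of the pair.

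The profiles nearest to each coactivator over the 4 libraries were sought among 11507 other protein-coding genes, by Euclidean distance of log2 CPM centred on each gene's mean. For YAP1 they were SIN3A (distance 0.013), USP36 (0.014) and BTNL9 (0.021), and 203 genes lay within 0.1. For WWTR1 they were RRM2B (0.021), PPM1D (0.033) and SH3GL2 (0.034), and 103 genes lay within 0.1. With 4 libraries and this many genes so close, the order among them carries little weight.

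TEAD factors bind DNA through their TEA domain and recruit YAP, TAZ or VGLL proteins. TEAD1 (ENSG00000187079; chromosome 11, 12674591 to 12944483, plus strand) was the most counted of them, at 231.4 and 249.6 CPM in vehicle and 99.1 and 172.6 CPM with gomisin G. Both treated libraries lay below vehicle, but replicate 1 far more so than replicate 2, at -1.28 and -0.48 against the vehicle mean on the log2 scale. The log2 change was -0.82 (SE 0.25, edgeR adjusted p = 0.129; 95% interval -1.40 to -0.24). The size depended on which treated library was used: it was -0.48 without gomisin G replicate 1 and -1.28 without replicate 2. DESeq2 called it (adjusted p = 0.0221).

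TEAD4 (ENSG00000197905; chromosome 12, 2959330 to 3040673, plus strand) stood at 61.7 and 52.1 CPM in vehicle and 32.7 and 31.3 CPM with gomisin G. The treated libraries lie close together here, at -0.80 and -0.86 against the vehicle mean, and neither reaches the lower vehicle library. TEAD4 had the lowest p of the tested factors, with a log2 change of -0.83 (SE 0.17, edgeR adjusted p = 0.0548; 95% interval -1.22 to -0.44). It passed the threshold with DESeq2 (adjusted p = 0.00636) and with a gene-length trend removed (log2 change -1.01, edgeR adjusted p = 0.0125).

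TEAD2 (ENSG00000074219; chromosome 19, 49340595 to 49362457, minus strand) was the only factor higher in both treated libraries than in both vehicle libraries. It was at 7.38 and 9.96 CPM in vehicle and 12.4 and 13.8 CPM with gomisin G. The log2 change was 0.59 (SE 0.23, edgeR adjusted p = 0.197; 95% interval 0.070 to 1.12). The vehicle pair differed by 0.43 on the log2 scale, more than in 83.7% of tested genes. TEAD2 shares 319 exon bases with CD37 on the opposite strand, and CD37 itself had 13 and 13 counts in vehicle and 17 and 30 with gomisin G. No source used here states whether the counting was strand-aware, so reads of the shared bases could belong to either gene.

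TEAD3 (ENSG00000007866; chromosome 6, 35473597 to 35497076, minus strand) stood at 21.8 and 25.1 CPM in vehicle and 22.2 and 26.6 CPM with gomisin G. The groups overlapped, and the log2 change was 0.058 (SE 0.19, edgeR adjusted p = 0.887; 95% interval -0.37 to 0.49). Its sign depended on the setting: it was -0.052 with the length trend removed. The 4 TEAD genes therefore had 2 estimates below 0 whose intervals exclude it, 1 above 0 whose interval excludes it, and 1 near 0. These intervals are not adjusted for the number of genes. They also rest on degrees of freedom borrowed from all tested genes, and would be wider on the 2 residual ones alone.

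**Figure D2:**
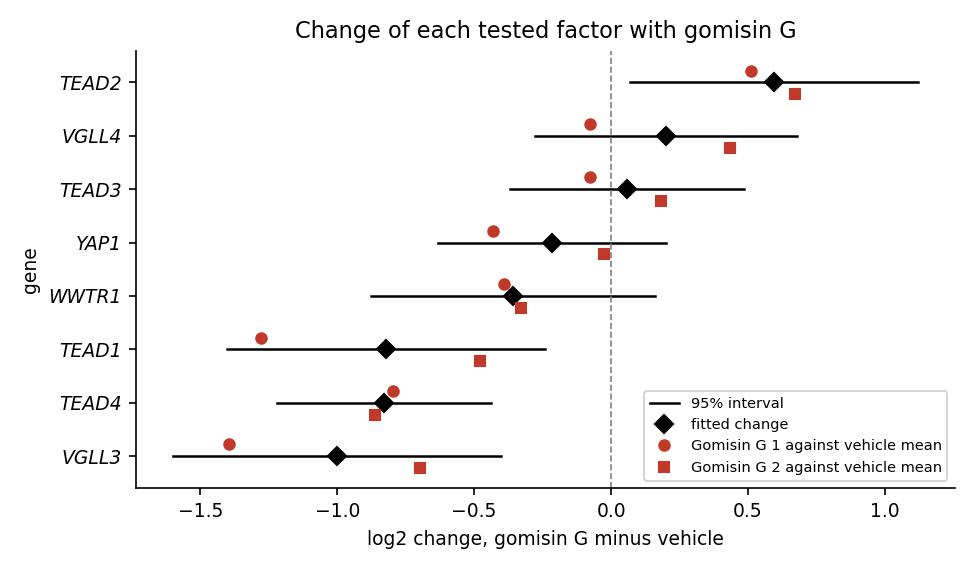
Log2 change with gomisin G for the 8 tested genes (black diamonds) with unadjusted 95% intervals (black lines), and each gomisin G library against the vehicle mean (red circles for replicate 1, red squares for replicate 2). The 2 treated libraries lie close together for TEAD4 (-0.80 and -0.86) and far apart for TEAD1 (-1.28 and -0.48).

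The mixture of TEAD transcripts was described by shares of their summed TPM. TEAD4 and TEAD1 were the main ones in vehicle, at 42.4% ± 4.8 and 39.6% ± 2.4 (SD, n = 2 each). TEAD3 held 13.0% ± 1.4 and TEAD2 4.93% ± 1.1. With gomisin G the share of TEAD2 was 11.1% ± 0.80 and that of TEAD3 20.2% ± 0.51 (n = 2 each). For both of these minor TEAD genes the share was higher in the treated libraries than in the vehicle libraries. The TPM of TEAD3 itself overlapped, at 23.8 and 27.3 in vehicle and 20.0 and 29.4 with gomisin G. The summed TEAD TPM, which divides each share, was 197.0 and 194.7 in vehicle and 97.5 and 148.2 with gomisin G. TPM carries no TMM factors and is not adjusted for gene-length trends. The sums therefore do not measure a change in TEAD level between the groups. In gomisin G replicate 1 TEAD3 was at 20.0 TPM and 22.2 CPM, against 23.8 TPM and 21.8 CPM in vehicle replicate 1. The shares of TEAD1 (27.1 and 38.2% with gomisin G, 38.0 and 41.3% in vehicle) and TEAD4 (40.6 and 31.4%, against 45.8 and 39.0%) overlapped between the groups. TEAD4 and TEAD2 are both among the shorter tested factors, at 2272 and 2980 bases. Their TPM ratio was 10.97 and 6.86 in vehicle and 3.47 and 2.97 with gomisin G, with no overlap. These shares and sums were not tested, and they were not adjusted for the gene-length trend given below.

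**Figure D3:**
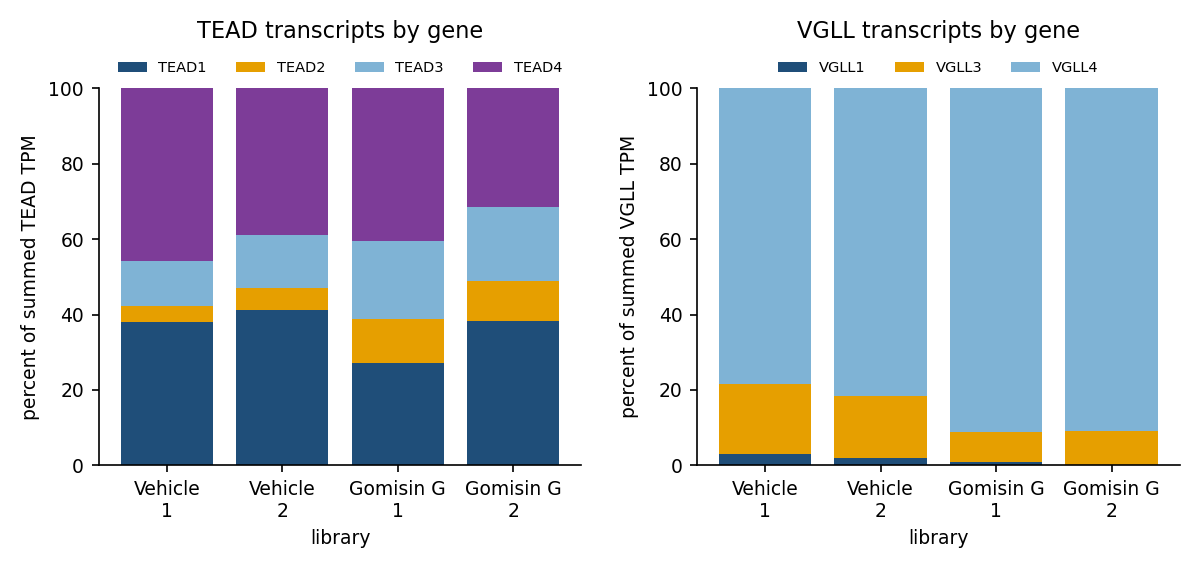
Share of each gene in the summed TPM of the TEAD genes (left) and of the VGLL genes (right), in percent, stacked to 100 in each library. The TEAD2 and TEAD3 shares are larger in both gomisin G libraries (10.6 to 11.7% and 19.9 to 20.6%) than in vehicle, and the VGLL3 share is smaller.

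VGLL3 (ENSG00000206538; chromosome 3, 86876388 to 86991119, minus strand) had the largest estimate of the tested factors. It stood at 14.8 and 14.3 CPM in vehicle and 5.53 and 8.96 CPM with gomisin G. Both treated libraries lay well below the vehicle pair, replicate 1 further than replicate 2. The log2 change was -1.0 (SE 0.26, edgeR adjusted p = 0.0906; 95% interval -1.60 to -0.40), and 2.49% of tested genes had a lower one. Its upstream stretch held neither motif. DESeq2 called it (adjusted p = 0.0336).

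VGLL4 (ENSG00000144560; chromosome 3, 11556070 to 11771350, minus strand), the TEAD-binding repressor gene, was at 35.3 and 40.2 CPM in vehicle and 35.8 and 51.0 CPM with gomisin G. The groups overlapped, and the log2 change was 0.20 (SE 0.21, edgeR adjusted p = 0.610; 95% interval -0.28 to 0.68). It rested on gomisin G replicate 2, without which it was -0.078; without replicate 1 it was 0.43 (edgeR adjusted p = 0.0179). VGLL4 shares 1596 exon bases with the autophagy gene ATG7 on the opposite strand, which had 359 to 416 counts a library.

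VGLL1 (ENSG00000102243; chromosome X, 136532152 to 136556807, plus strand) was too scarce to test. It had 4 and 3 counts in vehicle and 1 and 0 with gomisin G. The vehicle-to-gomisin G ratio of 7.19 has a 95% exact counting interval of 0.924 to 324, so no difference was detectable at this depth. For the count of 0 in gomisin G replicate 2, the 95% exact counting interval reaches 0.242 CPM, here by library total without TMM factors. The remaining family gene, VGLL2, had 0 counts over the 4 libraries. Such intervals and limits cover counting error only.

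VGLL4 was the main VGLL transcript in every library. Its share of the summed VGLL TPM was 80.0% ± 2.2 in vehicle and 91.0% ± 0.18 with gomisin G (SD, n = 2 each), and that of VGLL3 was 17.6% ± 1.5 and 8.55% ± 0.76. The groups did not overlap in either share. VGLL1 held at most 2.88% in any library, so these 2 shares nearly mirror each other and are 1 observation. The ratio of VGLL4 to VGLL3 was 4.20 and 4.93 in vehicle and 11.4 and 10.0 with gomisin G. The shares and the ratio were not tested, and they were not adjusted for the gene-length trend given below.

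Ordered by TPM in vehicle, YAP1 came first at 103.3 ± 1.9 TPM (SD, n = 2). TEAD4 followed at 83.1 ± 10.1 and TEAD1 at 77.6 ± 4.0, and those neighbours overlapped. Next were TEAD3 at 25.5 ± 2.5, VGLL4 at 17.3 ± 1.6, TEAD2 at 9.65 ± 2.0, VGLL3 at 3.79 ± 0.086, WWTR1 at 3.03 ± 0.21 and VGLL1 at 0.514 ± 0.11, each apart from its neighbours. With gomisin G the order was the same except that WWTR1 (2.19 ± 0.38) and VGLL3 (1.79 ± 0.84) changed places, and those 2 overlapped. There each of TEAD4, TEAD1, TEAD3 and VGLL4 also overlapped the next gene in the order. Averaged over the libraries, YAP1 exceeded 90.0% of tested genes in TPM and WWTR1 17.5%.

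Ratios between the classes were taken within each library. The YAP1 plus WWTR1 TPM was 0.532 and 0.554 of the summed TEAD TPM in vehicle, and 0.670 and 0.712 of it with gomisin G. The summed VGLL TPM was 0.105 and 0.116 of the TEAD sum in vehicle, and 0.153 and 0.176 with gomisin G. Both ratios were higher in the 2 treated libraries than in the 2 vehicle libraries. The TEAD sum, in the denominator, was 197.0 and 194.7 TPM in vehicle and 97.5 and 148.2 TPM with gomisin G. As above, these TPM sums carry no TMM factors and do not measure a change in level between the groups. The ratios were not tested and not adjusted for the gene-length trend given below.

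Gene length moved with the values of gomisin G replicate 1. Tested genes were put in 10 equal bins by length, from shortest to longest. In that library the median log2 CPM against the vehicle mean was 0.25 in bin 1 and 0.40 in bin 2 (1262 to 2165 bases), and it was -0.46 in bin 10. In replicate 2 the same medians were 0.12 and -0.051. TEAD1 and VGLL3, at 10279 and 12714 bases, are in bin 10. Relative to the median of that bin TEAD1 lay at -0.82 in replicate 1 and -0.43 in replicate 2, and VGLL3 at -0.94 and -0.65. TEAD4 is in bin 3, where the medians were 0.27 and 0.063, so it lay further below its bin (-1.06 and -0.92) than below vehicle. YAP1, in bin 7, lay at -0.32 and -0.012 against its bin. TEAD2, in bin 4, lay at 0.32 and 0.64 against its own.

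With the length trend removed from each library, the log2 change of TEAD1 was -0.66 (edgeR adjusted p = 0.0642), that of VGLL3 -0.79 (adjusted p = 0.0583) and that of TEAD2 0.48 (adjusted p = 0.251). TEAD4 was the only factor called by that fit, which called 2.87% of tested genes lower and 2.86% higher. What set the length trend was not tested.

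**Figure D4:**
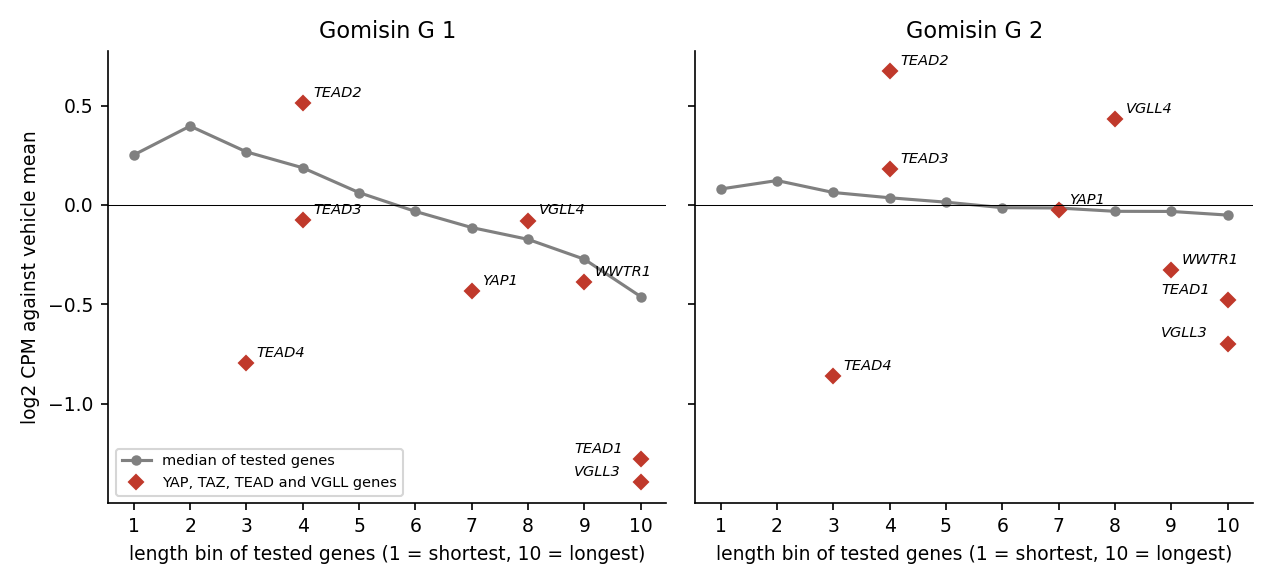
Log2 CPM of each gomisin G library against the vehicle mean, by length bin of the tested genes; grey points are the median of each bin and red diamonds the 8 tested factors. In replicate 1 the grey line is at 0.25 in bin 1 and descends from 0.40 in bin 2 to -0.46 in bin 10, and TEAD4 lies below it in both libraries, at -1.06 and -0.92 against its bin.

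The gomisin G pair also differed more than the vehicle pair over all genes, with a median absolute log2 difference of 0.32 against 0.15. TEAD1 differed by 0.80 between the treated libraries, more than in 89.1% of tested genes, VGLL3 by 0.68 and VGLL4 by 0.51. TEAD4 and WWTR1 differed there by 0.064 and 0.059, and 10.7% and 9.80% of tested genes had a smaller difference.

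Called changes were found among other genes of the pathway. The gene lists used from here on were chosen with earlier results of these data known. Their counts and medians beside those of all genes are therefore descriptive and no test of enrichment. The medians are not adjusted for the gene-length trend given above. Of 22 listed YAP/TAZ target genes 21 were tested, and by edgeR adjusted over all genes 7 fell and 0 rose, where 0.903% of tested genes fell; the median log2 change was -1.11, against 0.0092 over all tested genes. CCN1 (CYR61 in the files), a matricellular protein gene, stood at 39.8 and 38.1 CPM in vehicle and 4.77 and 4.48 CPM with gomisin G. AMOTL2, an angiomotin that holds YAP in the cytoplasm, stood at 161.0 and 146.4 against 18.6 and 24.5 CPM. CCDC80, a secreted matrix protein gene, stood at 7.66 and 7.87 against 1.66 and 2.08 CPM. Against vehicle the target list had a median of -1.11 in gomisin G replicate 1, and replicate 2 gave -0.84. The count that fell ranged from 4 without vehicle replicate 2, where 0.397% of tested genes fell, to 15 without gomisin G replicate 2, where 20.1% did.

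Of 27 listed genes of the Hippo kinase cassette and its regulators 25 were tested, and 5 fell and 0 rose (0.903% of tested genes fell), with a median log2 change of -0.39. They were AMOTL2, AJUBA (-1.45), an adaptor that binds LATS kinases, and the scaffold gene WWC2 (-1.67), with the kinase gene LATS2 (-1.20) and WWC1 (-0.94), the latter 2 named after their values were seen. The list medians were -0.66 in gomisin G replicate 1 and -0.21 in replicate 2, and from 3 (without vehicle replicate 2, 0.397% of tested genes) to 18 (without gomisin G replicate 2, 20.1%) fell when 1 library was left out. AMOTL2, LATS2 and PTPN14 are on both lists, and AMOTL2 and LATS2 count in both totals. With the length trend removed, 11 target genes and 8 genes of the Hippo list fell, where 2.87% of tested genes fell.

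Of 18 genes listed for YAP and TAZ retention and turnover, among them those for 14-3-3 proteins, edgeR called 0, where it called 1.83% of tested genes. Limma voom also called 0, and the median log2 change was -0.088. DESeq2 called 1 higher, against 3.43% of the genes to which it gave an adjusted p. At an unadjusted edgeR p below 0.05 there were 2 of the 18, against 20.6% of tested genes. The 14-3-3 sigma gene SFN, named after its value was seen, had the lowest p among them, at 327.3 and 271.6 CPM in vehicle and 668.6 and 457.6 CPM with gomisin G (edgeR adjusted p = 0.0805). Without gomisin G replicate 2, 5 of the 18 were called lower and 4 higher, against 20.1% and 18.5% of tested genes. Of 10 subunits of AP-1, a factor found on the same enhancers as TEAD, 9 were tested and 2 rose (0.922% of tested genes rose), with a median log2 change of 0.56. These were JUN (45.2 and 40.6 against 334.3 and 345.3 CPM) and JUND (88.6 and 83.1 against 368.4 and 250.7 CPM). Without gomisin G replicate 1 or 2, 5 rose in each fit, against 8.25% and 18.5% of tested genes. Of 21 other nuclear partners of YAP, TAZ and TEAD, 18 were tested and edgeR called 0, where it called 1.83% of tested genes. DESeq2 and limma voom also called 0, and the median log2 change was -0.28. At an unadjusted edgeR p below 0.05 there were 3 of the 18, against 20.6% of tested genes. Gomisin G replicate 1 had a median of -0.52 and replicate 2 one of -0.015. With the length trend removed, edgeR called 0 of the 18 lower and 0 higher, against 2.87% and 2.86% of tested genes. Up to 12 of these 18 were called lower without gomisin G replicate 2, against 20.1% of tested genes.

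**Figure D5:**
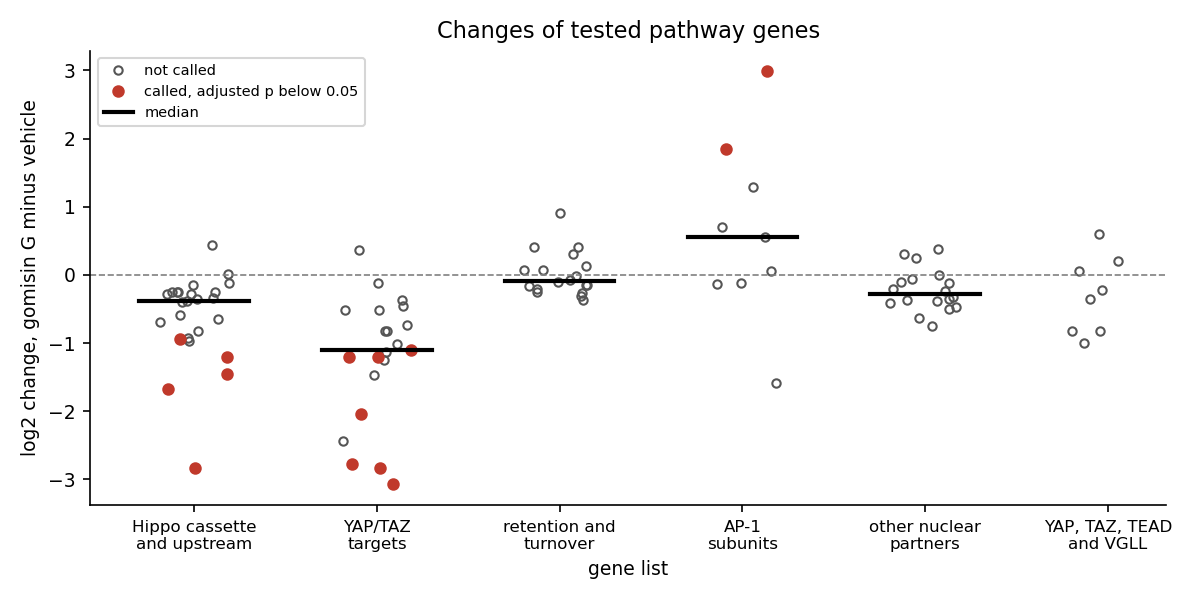
Log2 change with gomisin G of each tested gene in 5 pathway lists and of the 8 tested factors; filled red points passed the edgeR test and black bars are list medians. The 7 called target genes, which the test picked out, lie between -3.07 and -1.11. The target genes that were not called spread from -2.43 to 0.37 and overlap the 8 factors, whose range is -1.0 to 0.59.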

How the data were processed

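The authors deposited raw counts per gene for 4 RNA-seq libraries; per the submitters' processing notes, fastp, HISAT2 and featureCounts were used with build hg38, with no versions or settings given in the sources used here. Per the labels' protocols, ribosomal RNA was removed from total RNA. Sample tables and series table differed in 0 of 234940 values, and all 58735 identifiers, coordinates and lengths matched GENCODE release 29. Genes with enough counts by edgeR's default filter (15721) were tested with edgeR 4.0.16 in R 4.3.3: TMM factors, a robust quasi-likelihood fit on treatment alone (2 residual degrees of freedom), and Benjamini-Hochberg adjustment over all of them, with calls at 0.05. Changes are gomisin G minus vehicle; each SE is the change divided by the root of F. The fit was also run on simulated counts with the same spread in both groups and no gene-length trend. That run therefore does not show how the fit behaves with the wider gomisin G pair or the length trend seen here. Alternatives were RLE and upper-quartile factors, other filters, DESeq2 1.42.0, limma voom 3.58.1, the legacy fit, a lowess length trend removed (span 0.3), a replicate block and leaving out each library. Named are the 9 members, up to 3 called genes with the lowest p of each list, and the 3 nearest profiles of each coactivator. The members and lists were chosen with earlier results of these data known. Protein sequences were not used here.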

Additional observations from a re-analysis of the deposited data

How the results depend on the processing

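Of 112 alternative estimates for the 8 factors, 87 kept direction and side of the threshold, 20 kept direction and passed it, and 5 changed sign. TEAD3 changed sign with the length trend removed (-0.052), with the replicate block and length trend removed (-0.059), and without vehicle replicate 1 (-0.045); over fits without 1 library it ranged from -0.076 to 0.18. VGLL4 changed sign without gomisin G replicate 2, with a range of -0.078 to 0.43. Factors called lower, 0 in the test as reported, were 3 with DESeq2, 1 with the length trend removed, and 0 to 4 over fits without 1 library; factors called higher were 0 to 2 over those fits. Over all genes, 142 fell and 145 rose; with DESeq2 435 fell and 455 rose, with the length trend removed 451 and 449, and without 1 library 66 to 3297 fell and 69 to 3025 rose. Without vehicle replicate 1, 87 fell and 73 rose; without gomisin G replicate 1, 1467 and 1368. Fits that lack a gomisin G library take their spread from the vehicle pair, which differed less. Equal replicate numbers are not stated to mark a shared culture or day; same-numbered deviations correlated at 0.21 over genes. With the replicate block 1478 fell and 1408 rose, among them 3 factors lower (TEAD1, TEAD4, VGLL3) and 1 higher (TEAD2); with block and length trend removed 1239 fell and 1314 rose, 3 factors lower among them. Depth limits WWTR1 and VGLL1 most.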
